A study of Homo sapiens with 24 samples.

Results

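Transcripts of the mitochondrial genome were examined in 2 bladder cancer cell lines after depletion of FOXA1, ZBED2 or both. The members were taken by symbol, as every gene of the count table whose name starts with MT-. This gave 37 of 58721 genes, made up of 13 protein-coding genes, 2 rRNA genes and 22 tRNA genes. The positions below are those of GENCODE, and all 37 matched a RefSeq gene (GRCh38.p14, chromosome MT) by start and end. The mitochondrial sequence has 16569 bases. RT112 is a luminal papillary (LumP) line and SCaBER a basal/squamous (Ba/Sq) line. Each line was grown in its own medium with 10% serum (RT112 in RPMI, SCaBER in DMEM), so line and medium cannot be told apart. All cells received siRNA with a lipid reagent, in 6 treatments per line: a control siRNA (siControl), 1 of 2 siRNAs against ZBED2 (siZBED2-1, siZBED2-2), 1 siRNA against FOXA1 (siFOXA1), and siFOXA1 + siZBED2-1 or siFOXA1 + siZBED2-2. FOXA1 is a pioneer factor of the luminal programme, and ZBED2 a transcription factor with a BED-type zinc finger. There were 12 groups of 2 libraries, which makes 24. A single FOXA1 siRNA and a single control siRNA were used, so an effect of FOXA1 depletion and an effect of that siRNA sequence cannot be told apart. The labels number the replicates by experiment batch and do not state separate cultures, so p-values measure the spread between these libraries, part of which may be technical.

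The human mitochondrial genome is a small circle that is copied into long transcripts from both strands, called heavy and light. Most tRNAs lie between the rRNAs and mRNAs, and their excision frees the neighbouring RNAs, most of which then receive short poly(A) tails. The rRNAs build the mitochondrial ribosome, and the mRNAs encode subunits of respiratory complexes I, III, IV and V of the inner membrane. The remaining subunits and all enzymes of mitochondrial transcription, processing and decay are encoded in the nucleus. Libraries were made by 3′ RNA-seq, in which oligo-dT primes cDNA on stretches of A and reads lie close to that site. Purification was on spin columns, which keep little RNA as short as a mature tRNA, so a count on a tRNA gene is a read aligned there and not a level of the mature tRNA.

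The 2 tRNA genes in which the clearest changes were seen, and MT-TP, the third of the 3 tRNA genes with the most counts, are shown first, 5′ to 3′ in the sense direction, with runs of at least 4 A in capitals. MT-TP holds no such run. Such runs also occur in tRNA genes with few counts, such as MT-TR (4 A, 0 counts) and MT-TG (6 A, 3 counts over all libraries). The sequences are those of the GENCODE transcripts.
MT-TF: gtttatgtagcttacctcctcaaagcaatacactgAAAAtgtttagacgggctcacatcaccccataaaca
MT-TL1: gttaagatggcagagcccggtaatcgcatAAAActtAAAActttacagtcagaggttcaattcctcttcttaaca
MT-TP: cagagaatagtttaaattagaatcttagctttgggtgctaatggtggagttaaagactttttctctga
MT-TF (MT:577-647, heavy-strand transcript) carries phenylalanine and lies directly before MT-RNR1. MT-TL1 (MT:3230-3304, heavy-strand transcript) carries leucine and lies between MT-RNR2 and MT-ND1. MT-TP (MT:15956-16023, light-strand transcript) carries proline.

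In 6 of the 13 protein-coding genes the annotated coding sequence stops before its stop codon is complete, and the poly(A) tail supplies the missing A residues. The last 30 bases are shown for MT-ND1 and MT-ND2, which had the largest changes of the mRNA genes with the FOXA1 siRNA in RT112, for MT-ND3, which differed most between the lines, and for MT-CO1, which was not higher under siFOXA1 in RT112. The stop codon, or its annotated part, is in capitals.
MT-ND1: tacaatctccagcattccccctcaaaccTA
MT-ND2: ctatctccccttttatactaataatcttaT
MT-ND3: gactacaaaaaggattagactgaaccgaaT
MT-CO1: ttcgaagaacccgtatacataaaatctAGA
The stop codon is incomplete in MT-ND1, MT-ND2 and MT-ND3 and annotated as a whole codon, AGA, in MT-CO1.

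MT-ATP8 and MT-ATP6 share 46 bases, in which a read cannot be given to 1 gene by position alone, and MT-ND4L and MT-ND4 share 7 bases. The stretch of the first pair is given with the start codon of MT-ATP6 and the stop codon of MT-ATP8 at its ends.
MT-ATP8 and MT-ATP6: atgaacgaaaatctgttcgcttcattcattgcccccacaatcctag

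Depth was similar in all libraries, with 4425404 to 6119210 counts and 14121 to 16082 genes with a count. FOXA1 ran from 31.4 to 56.9 CPM (counts scaled to a common library size by the TMM method) in the 6 RT112 libraries without its siRNA and from 4.03 to 15.7 in the 6 with it. In SCaBER FOXA1 ran from 0.184 to 5.51 CPM (1 to 28 counts) without and from 0 to 1.36 CPM with the siRNA, so these ranges overlapped and FOXA1 was low throughout. ZBED2 ran from 1.52 to 22.0 CPM without and from 0 to 7.33 CPM with its siRNAs in RT112, with overlap, and in SCaBER the 2 ranges were 18.9 to 20.4 CPM and 1.69 to 15.8 CPM, without overlap. Under siControl RT112 held the luminal genes GATA3 (488 to 519 CPM) and UPK2 (96.9 to 107 CPM), while KRT20 and UPK3A were at 0. SCaBER held the basal genes KRT5 (811 to 819 CPM), KRT6A (955 to 991 CPM) and KRT14 (269 to 302 CPM). Of the same basal and squamous list KRT16 was higher in RT112 (49.5 to 59.2 CPM) than in SCaBER (18.1 to 28.8 CPM), and TP63 overlapped (15.5 to 34.9 CPM and 18.5 to 18.9 CPM). The leukocyte markers PTPRC, CD3E, CD68 and LYZ had at most 13 counts in a library of either line, with LYZ at 0 throughout. One library stood apart: RT112 siZBED2-2 replicate 2 held 8.22% mitochondrial counts against 16.4% in replicate 1, and this pair had the highest chi-square per gene of all replicate pairs (24.1, against 6.25 to 11.6 in the other 11). The difference in mitochondrial share and the counts of genes called in comparisons that hold it are also given without it. The RT112 ranges, log2 changes and shares of single genes include it.

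Mitochondrial transcripts took 8.22% to 22.7% of the counts of a library, with a 95% Wilson interval of at most ±0.0372 percentage points that covers counting error only. The 13 mRNA genes held 47.4% to 67.7% of the mitochondrial counts, the 2 rRNA genes most of the rest, and the 22 tRNA genes 0.114% to 0.583%. In bulk samples fewer cells of a type and less RNA per cell cannot be told apart, and a larger mitochondrial share cannot be told from less of all other RNA.

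The mitochondrial genes differed widely in level. Per kilobase of gene under siControl, MT-ND3, which encodes a small membrane subunit of complex I, was the highest of the 15 mRNA and rRNA genes in RT112, at 44657 ± 13378 CPM per kb (SD, n = 2). In SCaBER it was at 9540 ± 1490 CPM per kb (SD, n = 2) and sixth in order, and MT-RNR2, the rRNA of the large ribosomal subunit, came first at 23912 ± 759 CPM per kb (SD, n = 2). MT-ND6, the only mRNA read from the light strand, was lowest in both lines, at 132 ± 81.8 CPM per kb in RT112 and 207 ± 75.9 in SCaBER (SD, n = 2). Of the 14 neighbouring pairs in this order, 2 were apart in RT112, in that the ranges of their 2 libraries did not meet, and 9 were apart in SCaBER. In both lines MT-ND5 and MT-ND6 were such a pair, and in RT112 MT-ATP6 and MT-RNR1 were the other. Reads of 3′ libraries need not scale with length, so shares of the mitochondrial total are given for each gene as well. Since cDNA starts on stretches of A, a difference between genes in level, as for MT-ND6, cannot be told from one in capture.

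Composition of the mitochondrial counts differed between the lines in 5 of the 15 genes, if a difference is read as shares that do not overlap between the 12 libraries of each line. MT-ND3 took 10.4% to 14.0% in RT112 and 3.15% to 3.87% in SCaBER. MT-ND4L, another complex I subunit that follows it in the genome after MT-TR, took 0.771% to 1.11% and 0.371% to 0.546%. MT-CYB, the cytochrome b of complex III, took 4.22% to 5.32% and 2.7% to 3.63%. These 3 were lower in SCaBER. MT-RNR2 took 26.9% to 31.8% in RT112 and 36.6% to 42.4% in SCaBER, and MT-ND6 0.0148% to 0.0569% and 0.0657% to 0.178%, so both shares were higher in SCaBER. Only mitochondrial genes have a share of this total, so the count of 5 has no background over all genes. Shares of a common total are tied, so a lower share of MT-ND3 goes with larger shares elsewhere. Neither MT-RNR2 nor MT-ND6 passed the test of levels given below, where MT-ND6 was gained with the replicate number as a block.

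**Figure D1:**
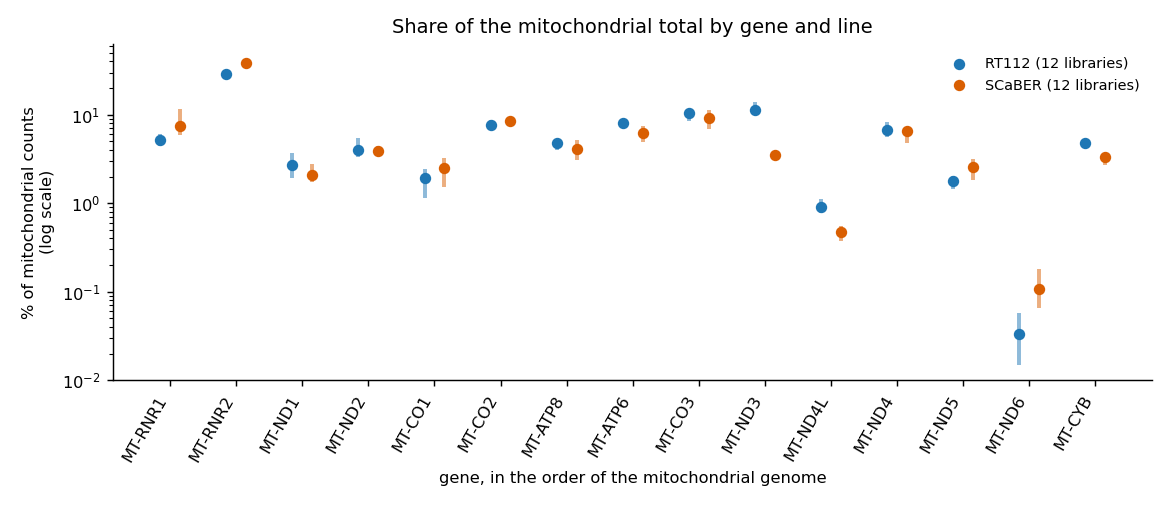
Share of each rRNA and mRNA gene in the mitochondrial counts (percent, log axis), with genes in genome order; points are medians and bars the lowest to highest of 12 libraries per line. MT-ND3, MT-ND4L and MT-CYB lie lower in SCaBER without overlap, and MT-RNR2 and MT-ND6 higher.

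The level of the same genes before any knock-down was compared between the lines in a fit of all 24 libraries. In siControl cells 10 of the 29 mitochondrial genes tested were lower in SCaBER and 0 higher, where 16.4% of all genes tested were called lower. The 8 mRNA and rRNA genes among them were MT-ND1, MT-CO2, MT-ATP8, MT-ATP6, MT-CO3, MT-ND3, MT-ND4L and MT-CYB, and the tRNA genes were MT-TL1 and MT-TM. The median log2 difference of the 15 mRNA and rRNA genes was -0.54, and that of all genes 0.00. Mitochondrial genes are cut from shared transcripts and can move together. A count of them beside the share of all genes is thus not a count of separate results, here and below. MT-ND3 stood at 18724 and 12178 CPM in RT112 and 2936 and 3665 CPM in SCaBER (0.214-fold, log2 -2.23 ± 0.18 SE, edgeR adjusted p = 1e-11). MT-ND4L stood at 1371 and 895 CPM and 406 and 458 CPM (0.381-fold, log2 -1.39 ± 0.19 SE, edgeR adjusted p = 4.43e-07). MT-CYB stood at 7569 and 4961 CPM and 3041 and 3703 CPM (0.538-fold, log2 -0.89 ± 0.21 SE, edgeR adjusted p = 0.00102). In all 3 genes both SCaBER libraries were below both RT112 libraries. MT-ND4, which lies on 1 mRNA with MT-ND4L, was not among the 10. The line difference in MT-ND4L thus cannot be told from one in where cDNA started on that mRNA. Capture was not measured for any of these genes. The rRNA genes did not pass the test, with log2 differences of -0.26 ± 0.20 SE for MT-RNR1 (edgeR adjusted p = 0.338) and -0.27 ± 0.17 SE for MT-RNR2 (edgeR adjusted p = 0.245). The count fell to 5 without SCaBER siControl replicate 1 and to 6 without RT112 siControl replicate 1; MT-ATP6, MT-ATP8, MT-CO2, MT-CO3 and MT-ND1 were lost in both cases. DESeq2 called 7, of which 6 were among the 10, and MT-ATP8, MT-CO2, MT-CO3 and MT-ND1 were lost. MT-CO2 was also lost with RLE scaling and with TMM from nuclear genes. With the replicate number as a block 12 were called, with MT-ND4 gained as lower (-0.46 on the log2 scale, edgeR adjusted p = 0.0456) and MT-ND6 gained as higher in SCaBER (0.70, edgeR adjusted p = 0.0423).

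Nuclear copies of mitochondrial genes share sequence with them, and STAR's gene counts keep reads that align to a single position. The table held 407 such copies, of which 35 had a count, and together they took 0.539% to 4.15% as many counts as the mitochondrial genes. The copy with the most counts was MTRNR2L12, a copy of MT-RNR2, with a median of 453 counts in RT112 and 17747 in SCaBER libraries. MTATP6P1, a copy of MT-ATP6, had 4893 and 1810.5. The next 3, MTND2P28, MTCO2P12 and MTND1P23, stayed at or below 105 counts in every library. Both leading copies thus differed between the lines, and their part in the line differences of the rRNA and mRNA genes was not tested.

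Depletion of FOXA1 was followed by a larger mitochondrial share in RT112. The share was 17.8% and 12.2% in the siControl libraries, 16.0% and 16.9% with siZBED2-1 and 16.4% and 8.22% with siZBED2-2. With siFOXA1 it was 21.4% and 22.7%, with siFOXA1 + siZBED2-1 20.6% and 19.8%, and with siFOXA1 + siZBED2-2 19.4% and 18.6%. All 6 libraries with the FOXA1 siRNA lay above all 6 without it, with means of 20.4% ± 1.5 and 14.6% ± 3.68 (SD, n = 6 libraries of 3 groups). The difference was 5.83 percentage points, and 4.56 without RT112 siZBED2-2 replicate 2.

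In SCaBER the share was 9.73% and 10.7% in the siControl libraries, 10.9% and 10.2% with siZBED2-1 and 12.0% and 9.55% with siZBED2-2. It was 12.9% and 12.5% with siFOXA1, 11.8% and 11.0% with siFOXA1 + siZBED2-1, and 11.5% and 9.29% with siFOXA1 + siZBED2-2. The 2 arms overlapped, with means of 11.5% ± 1.28 with and 10.5% ± 0.893 without the FOXA1 siRNA (SD, n = 6 libraries of 3 groups). Only the 2 siFOXA1 libraries lay above every library without it. Without the 2 rRNA genes the difference of 0.979 percentage points fell to 0.00578 in SCaBER, while in RT112 it was 4.22.

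**Figure D2:**
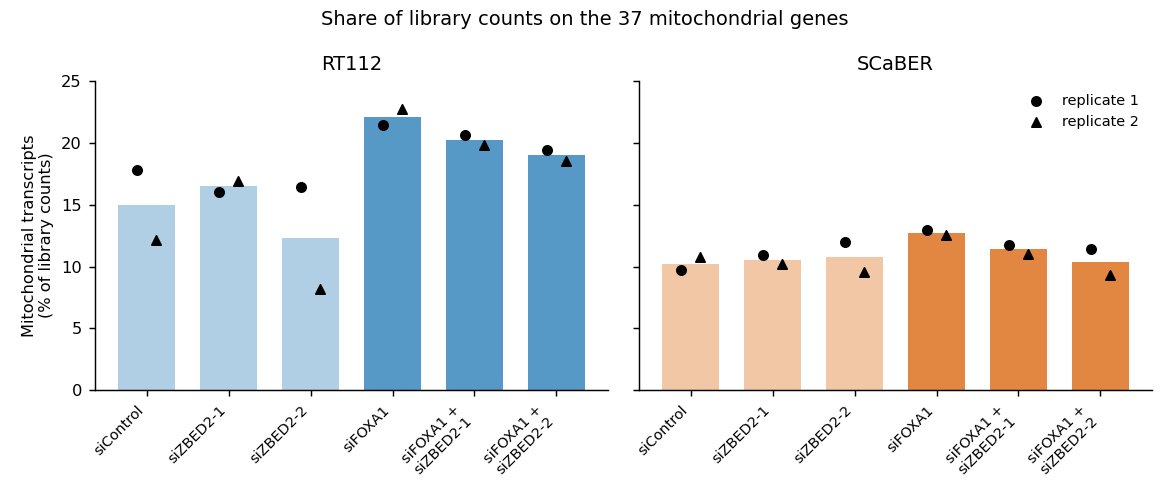
Mitochondrial share of library counts (percent) by treatment in RT112 and SCaBER; bars are means of 2 libraries, circles replicate 1 and triangles replicate 2, and darker bars hold the FOXA1 siRNA. In RT112 all 6 libraries with the FOXA1 siRNA (18.6% to 22.7%) lie above the others (8.22% to 17.8%), and in SCaBER the arms overlap.

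MALAT1, a nuclear-retained long non-coding RNA, was high in many of the libraries with a high mitochondrial share. It ran from 2537 to 8630 CPM in the RT112 libraries without and from 8139 to 10889 CPM in those with the FOXA1 siRNA, and the library with the lowest mitochondrial share, RT112 siZBED2-2 replicate 2, also had the lowest MALAT1 of its line. In SCaBER MALAT1 ran from 2922 to 5484 CPM without and from 2508 to 6550 CPM with it, and siFOXA1 + siZBED2-2 replicate 2 was lowest in both measures. NEAT1, another such RNA, overlapped between the arms, at 200 to 712 CPM without and 372 to 881 CPM with the FOXA1 siRNA among RT112 libraries, and at 636 to 1322 CPM and 389 to 877 CPM among those of SCaBER. The counts of cytoplasmic ribosomal protein genes took 7.73% to 8.57% of the RT112 libraries without and 5.81% to 8.54% of those with the FOXA1 siRNA. Whether these differences between libraries bear on the mitochondrial results was not tested.

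**Figure D3:**
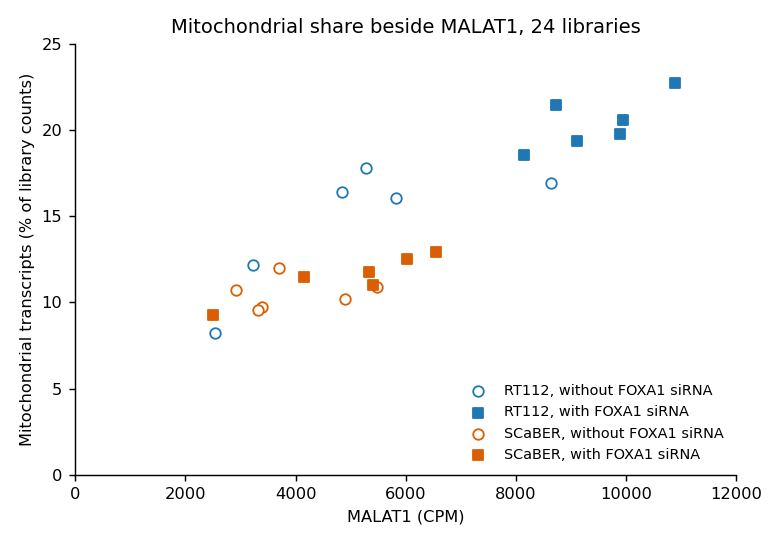
Mitochondrial share of library counts (percent) against MALAT1 (CPM) in 24 libraries; open circles are libraries without and filled squares those with the FOXA1 siRNA. The 6 RT112 libraries with the siRNA lie at the upper right (MALAT1 8139 to 10889 CPM) and RT112 siZBED2-2 replicate 2 at the lower left of its line.

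Gene by gene, the response to FOXA1 depletion was tested as siFOXA1 against siControl and as the 6 libraries with against the 6 without the FOXA1 siRNA. Under siFOXA1 12 of 29 mitochondrial genes were higher and 0 lower in RT112, where 11.3% of all genes tested were called higher, and 8 were higher and 0 lower in SCaBER, where 8.71% were. With the replicate number as a block the counts were 17 in RT112, with MT-ATP8, MT-CO2, MT-CO3, MT-ND5 and MT-TP gained, and 11 in SCaBER, with MT-CO1, MT-ND4L and MT-ND6 gained, all higher. The shares of all genes called with the block are not given here, so these gains need not be particular to mitochondrial genes. The median log2 change of the 15 mRNA and rRNA genes was 0.65 in RT112 and 0.32 in SCaBER, against -0.01 and -0.02 for all genes. In the comparison of 6 with 6 libraries 20 of 29 were higher and 0 lower in RT112 (16.7% called higher), of which 14 were mRNA or rRNA genes and 6 tRNA genes. In SCaBER 8 were higher and 0 lower (12.1% called higher), 6 mRNA or rRNA genes and 2 tRNA genes. All 6 libraries with the siRNA lay above the other 6 for 9 mitochondrial genes in RT112 and for 2 in SCaBER, where 5.27% and 3.4% of all genes tested did so. The comparison of 6 libraries holds the 4 of siFOXA1 against siControl, so the 2 are not independent. With DESeq2 the count under siFOXA1 in RT112 was 6, all among the 12, and in the comparison of 6 with 6 it was 17 of the 20, without MT-ATP8, MT-CO1 and MT-ND5. RT112 siControl replicate 2 had the lower mitochondrial share of its pair, and without it the siFOXA1 count was 6 (MT-ATP6, MT-ND3, MT-ND4, MT-RNR1, MT-RNR2 and MT-TM were lost), while without replicate 1 it was 19. Without RT112 siZBED2-2 replicate 2 the count of the comparison of 6 libraries was again 20.

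**Figure D4:**
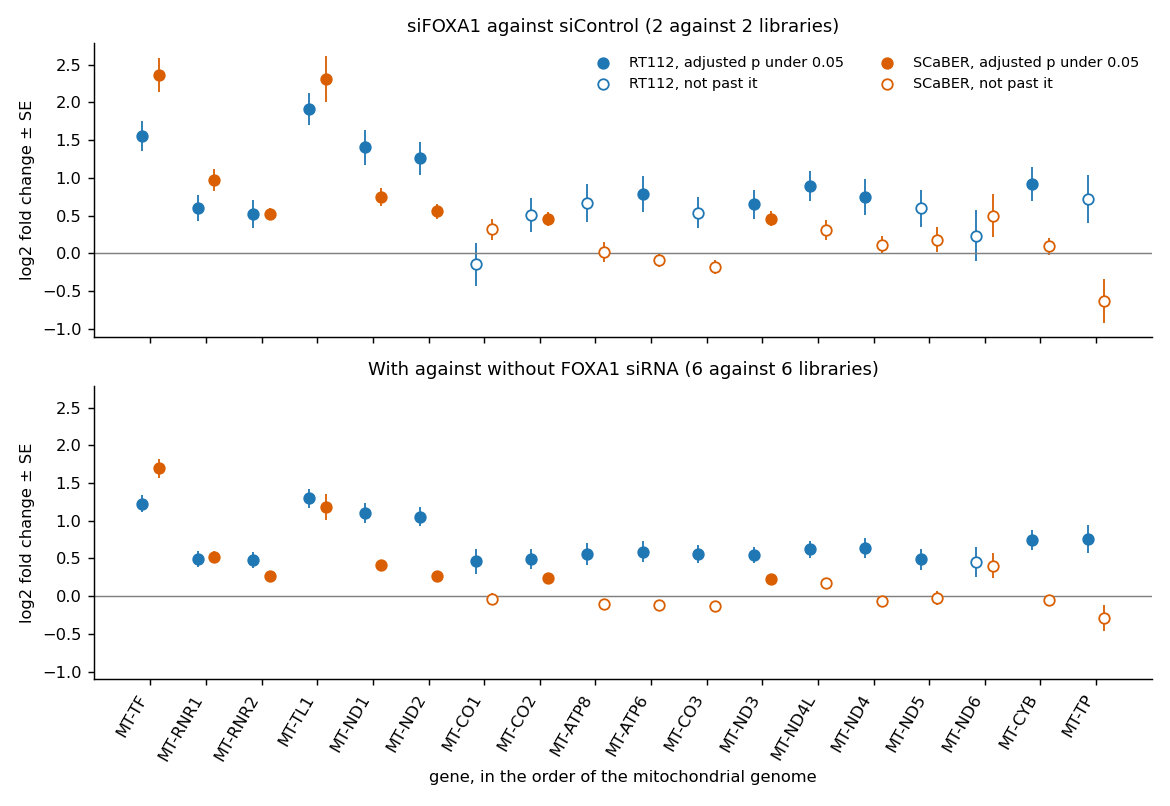
Log2 fold change ± SE for 15 mRNA and rRNA genes and 3 tRNA genes, in genome order, for siFOXA1 against siControl (top) and with against without the FOXA1 siRNA (bottom); filled points passed an edgeR adjusted p of 0.05. Of the genes shown MT-TF and MT-TL1 have the largest changes in both lines, and in the bottom plot the mRNAs from MT-CO1 onward lie between 0.45 and 0.74 in RT112 and between -0.13 and 0.40 in SCaBER.

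The largest changes among members that passed in both lines were in MT-TF and MT-TL1, the tRNA genes at either side of the rRNA genes. MT-TF stood at 118 and 88.4 CPM in RT112 siControl libraries and at 278 and 331 CPM under siFOXA1 (2.93-fold, log2 1.55 ± 0.20 SE, edgeR adjusted p = 2.31e-06). In SCaBER it stood at 83.7 and 85.9 CPM and 578 and 308 CPM (5.15-fold, log2 2.37 ± 0.23 SE, edgeR adjusted p = 1.16e-09). The siFOXA1 libraries lay above the siControl libraries in both lines, and in SCaBER the replicates of siFOXA1 differed by more CPM than those of any other group. MT-TL1 stood at 29.4 and 39.3 CPM and 116 and 147 CPM in RT112 (3.77-fold, log2 1.92 ± 0.21 SE, edgeR adjusted p = 4.29e-07). In SCaBER it stood at 15.7 and 14.6 CPM and 88.7 and 63.7 CPM (4.97-fold, log2 2.31 ± 0.30 SE, edgeR adjusted p = 5.46e-07). These levels are small beside those of most mRNA genes. MT-ND6 was an exception, at 30.8 to 110 CPM in RT112 and 59.9 to 203 CPM in SCaBER libraries with the FOXA1 siRNA. In those of SCaBER MT-ND4L, at 444 to 611 CPM, was also near the highest level of MT-TF. The lowest count was 275 for MT-TF and 60 for MT-TL1. With the 6 libraries of each arm MT-TF was higher in RT112 (2.34-fold, log2 1.23 ± 0.11 SE, edgeR adjusted p = 5.27e-09) and in SCaBER (3.24-fold, log2 1.69 ± 0.13 SE, edgeR adjusted p = 3.74e-12), without overlap of the arms in either line. MT-TL1 was higher in RT112 (2.46-fold, log2 1.30 ± 0.12 SE, edgeR adjusted p = 8.35e-09) and in SCaBER (2.26-fold, log2 1.18 ± 0.17 SE, edgeR adjusted p = 2.95e-06), again without overlap. As a share of the mitochondrial total, given without a test, the change in RT112 was smaller, at log2 0.58 ± 0.26 SE for MT-TF and 0.61 ± 0.28 SE for MT-TL1. In SCaBER the share change was log2 1.53 ± 0.13 SE for MT-TF and 1.03 ± 0.19 SE for MT-TL1.

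**Figure D5:**
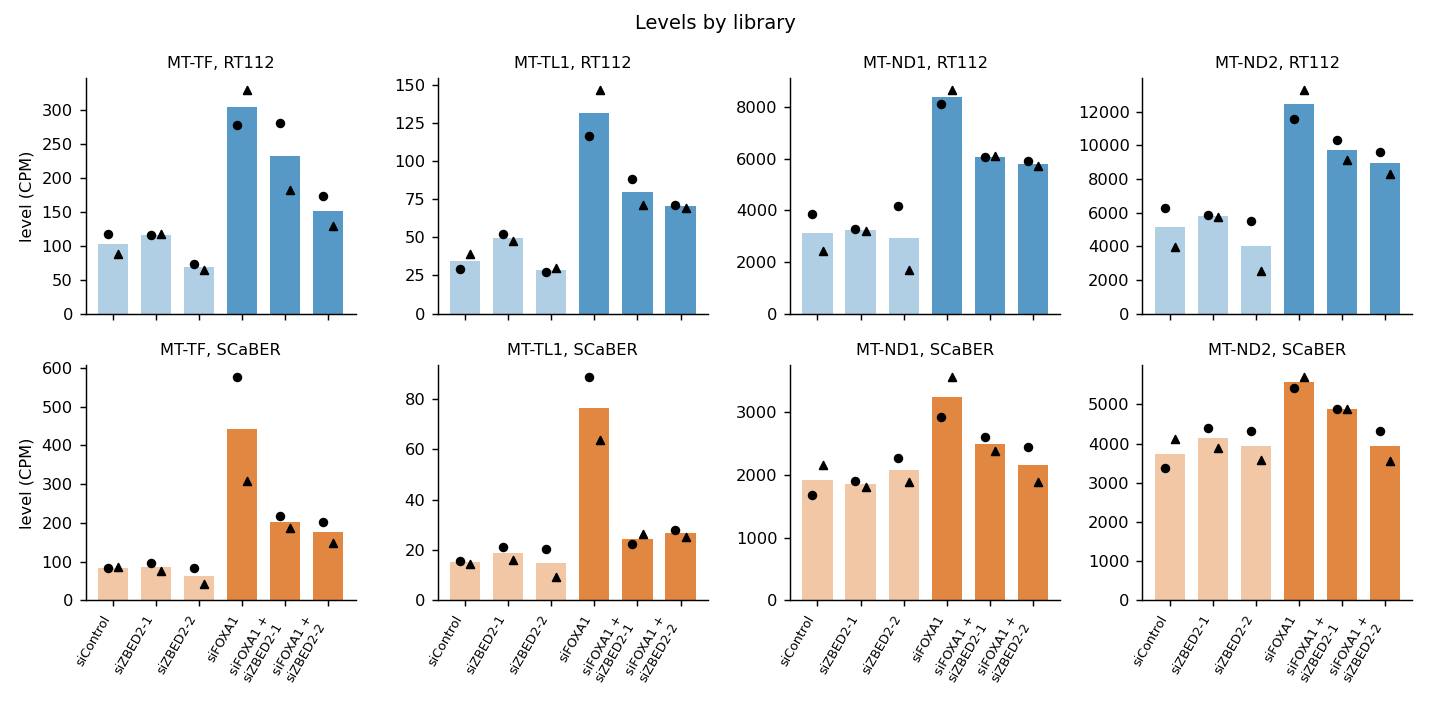
Levels (CPM) of MT-TF, MT-TL1, MT-ND1 and MT-ND2 by treatment in RT112 (top) and SCaBER (bottom); bars are means of 2 libraries, circles replicate 1 and triangles replicate 2, and darker bars hold the FOXA1 siRNA. The siFOXA1 bar is the highest in all 8 panels, and MT-TF under siFOXA1 in SCaBER spans 308 to 578 CPM.

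The other tRNA genes gave few counts. MT-TN, MT-TK and MT-TR had 0 counts in every library, which allows up to 3 counts per library (0.49 to 0.678 CPM by the library total without TMM scaling), and MT-TG had at most 3. A count in every library was found for 13 of the 22, and 14 entered the tests. The 3 with the most counts, MT-TF, MT-TL1 and MT-TP, held 80.2% of all tRNA counts. In RT112 6 of the 14 were called higher in the comparison of 6 with 6 libraries, and in SCaBER MT-TF and MT-TL1. MT-TP ran from 16.1 to 52.3 CPM (median 29.1) without the FOXA1 siRNA and 23.3 to 73.9 CPM (median 57.7) with it in RT112 (log2 fold change 0.76 ± 0.19 SE, edgeR adjusted p = 0.00239), and the arms overlapped. Levels in SCaBER ran from 24.0 to 46.6 CPM (median 35.3) without the FOXA1 siRNA and 21.1 to 39.2 CPM (median 25.6) with it (log2 fold change -0.29 ± 0.17 SE, edgeR adjusted p = 0.24). Its change differed between the lines, by log2 -1.05 ± 0.28 SE (SCaBER minus RT112, edgeR adjusted p = 0.0147).

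The rRNA genes rose in both lines. MT-RNR1 (MT:648-1601), the rRNA of the small ribosomal subunit, ran in RT112 from 4506 to 9729 CPM (median 7880.3) without the FOXA1 siRNA and 9279 to 13366 CPM (median 10146) with it (log2 fold change 0.49 ± 0.10 SE, edgeR adjusted p = 0.000478). For SCaBER the range was 5409.9 to 8762 CPM (median 6743) without the FOXA1 siRNA and 7209.7 to 15385 CPM (median 9789.6) with it (log2 fold change 0.52 ± 0.08 SE, edgeR adjusted p = 8.25e-06). The arms overlapped in both lines. The highest levels of MT-RNR1 in SCaBER were those of the siFOXA1 libraries, 15385 and 11408 CPM against 6655 and 6831 CPM under siControl (1.96-fold, log2 0.97 ± 0.14 SE, edgeR adjusted p = 3.89e-06). MT-RNR2 (MT:1671-3229) ran in RT112 from 23684 to 52771 CPM (median 45955) without the FOXA1 siRNA and 54116 to 70079.6 CPM (median 59739.7) with it (log2 fold change 0.48 ± 0.11 SE, edgeR adjusted p = 0.000829), without overlap. SCaBER cells were at 35164 to 44748 CPM (median 37879) without the FOXA1 siRNA and 37050 to 54180.3 CPM (median 47132) with it (log2 fold change 0.26 ± 0.05 SE, edgeR adjusted p = 0.000106), with overlap. Together the rRNA genes took 35.7% ± 2.04 of the mitochondrial counts without and 33.2% ± 1.18 with the FOXA1 siRNA in RT112 (SD, n = 6 libraries of 3 groups), while SCaBER went from 44.5% ± 1.28 to 49.1% ± 2.88. The mean rRNA share was thus lower with the siRNA in RT112 and higher in SCaBER, a difference that was not tested, and the ranges of the arms overlapped in both lines. On the RT112 siFOXA1 contrast alone MT-RNR1 and MT-RNR2 passed the test (edgeR adjusted p = 0.0144 and 0.0424), but neither did with DESeq2, without RT112 siControl replicate 2 or without RT112 siFOXA1 replicate 2.

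Of the 7 complex I subunits, 6 rose in RT112 and 3 in SCaBER in the comparison of 6 with 6 libraries. MT-ND1 (MT:3307-4262), the core membrane subunit next to the quinone site, ran in RT112 from 1705 to 4175 CPM (median 3230.1) without the FOXA1 siRNA and 5715 to 8687 CPM (median 6092) with it (2.14-fold, log2 1.10 ± 0.13 SE, edgeR adjusted p = 3.59e-07). The range in SCaBER was 1682 to 2266 CPM (median 1899.7) without the FOXA1 siRNA and 1896 to 3573 CPM (median 2526) with it (1.33-fold, log2 0.41 ± 0.07 SE, edgeR adjusted p = 2.04e-05). The arms did not overlap in RT112 and overlapped in SCaBER. MT-ND2 (MT:4470-5511), a subunit of the proton-pumping arm, ran in RT112 from 2510.3 to 6301 CPM (median 5638) without the FOXA1 siRNA and 8279 to 13305 CPM (median 9947) with it (2.07-fold, log2 1.05 ± 0.12 SE, edgeR adjusted p = 2.72e-07). Among SCaBER libraries it ran from 3373 to 4409 CPM (median 4002) without the FOXA1 siRNA and 3563 to 5709.6 CPM (median 4887) with it (1.2-fold, log2 0.26 ± 0.06 SE, edgeR adjusted p = 0.000817). As for MT-ND1, the arms were apart in RT112 only. These 2 genes had the largest log2 changes of the 13 mRNA genes in RT112, and they also gained in share of the mitochondrial total, MT-ND1 from 2.18% ± 0.212 to 3.17% ± 0.366 and MT-ND2 from 3.48% ± 0.133 to 4.85% ± 0.454 (SD, n = 6 libraries of 3 groups). In SCaBER the shares went from 1.89% ± 0.148 to 2.25% ± 0.269 and from 3.82% ± 0.176 to 4.11% ± 0.252. The changes were smaller in SCaBER, by log2 -0.69 ± 0.18 SE for MT-ND1 (edgeR adjusted p = 0.0103) and -0.79 ± 0.16 SE for MT-ND2 (edgeR adjusted p = 0.00145).

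MT-ND3 (MT:10059-10404) ran in RT112 from 8903 to 22110.5 CPM (median 18301) without the FOXA1 siRNA and 21031 to 25940.2 CPM (median 24468) with it (log2 fold change 0.55 ± 0.11 SE, edgeR adjusted p = 0.000362). The SCaBER libraries ran from 2936 to 4018 CPM (median 3787) without the FOXA1 siRNA and 3536 to 4682 CPM (median 4358) with it (log2 fold change 0.22 ± 0.06 SE, edgeR adjusted p = 0.00299). It rose in both lines with overlapping arms, and its share of the mitochondrial total went from 11.6% ± 1.29 to 11.3% ± 0.707 in RT112 (SD, n = 6 libraries of 3 groups), while SCaBER went from 3.5% ± 0.243 to 3.65% ± 0.171. MT-ND4L (MT:10470-10766), a small membrane subunit, ran in RT112 from 666 to 1759 CPM (median 1347) without the FOXA1 siRNA and 1674 to 2176 CPM (median 1997) with it (log2 fold change 0.62 ± 0.11 SE, edgeR adjusted p = 0.000111). Levels in SCaBER ran from 406 to 593 CPM (median 462) without the FOXA1 siRNA and 444 to 611 CPM (median 544) with it (log2 fold change 0.17 ± 0.07 SE, edgeR adjusted p = 0.096, and 0.044 with the replicate number as a block). MT-ND4 (MT:10760-12137), a proton-pumping subunit, ran in RT112 from 4195 to 13073 CPM (median 11089) without the FOXA1 siRNA and 12176 to 16709 CPM (median 15747) with it (log2 fold change 0.64 ± 0.14 SE, edgeR adjusted p = 0.000587). For SCaBER the range was 6101 to 7975 CPM (median 7071) without the FOXA1 siRNA and 4419.9 to 7995 CPM (median 7106) with it (log2 fold change -0.07 ± 0.07 SE, edgeR adjusted p = 0.51). MT-ND4L and MT-ND4 lie on 1 mRNA, and MT-ND4L had 0.119 to 0.159 times as many counts as MT-ND4 in RT112 libraries and 0.0587 to 0.101 times in those of SCaBER, without overlap.

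MT-ND5 (MT:12337-14148), the distal proton-pumping subunit, ran in RT112 from 1239 to 3544 CPM (median 2875) without the FOXA1 siRNA and 2831 to 4298 CPM (median 3761) with it (log2 fold change 0.49 ± 0.14 SE, edgeR adjusted p = 0.0088). SCaBER cells were at 2148 to 3389 CPM (median 2736) without the FOXA1 siRNA and 1700.2 to 3454 CPM (median 2876) with it (log2 fold change -0.03 ± 0.10 SE, edgeR adjusted p = 0.873). The arms of MT-ND5 overlapped in both lines, and its call in RT112 was lost with DESeq2. MT-ND6 (MT:14149-14673, light-strand transcript) ran in RT112 from 33.8 to 99.9 CPM (median 40.8) without the FOXA1 siRNA and 30.8 to 110.2 CPM (median 68.4) with it (log2 fold change 0.45 ± 0.20 SE, edgeR adjusted p = 0.0861, and 0.0159 with the replicate number as a block). The range in SCaBER was 80.4 to 137 CPM (median 97.7) without the FOXA1 siRNA and 59.9 to 203 CPM (median 151) with it (log2 fold change 0.40 ± 0.16 SE, edgeR adjusted p = 0.0741, and 0.0114 with the block). MT-ND6 was the 1 of 15 mRNA and rRNA genes that did not pass in RT112, and its SD relative to its mean was the highest of the 15 in both arms of that line.

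MT-CYB (MT:14747-15887), the only complex III subunit of this genome, rose in RT112 alone. It ran there from 3146 to 7941 CPM (median 7482) without the FOXA1 siRNA and 9193 to 12294 CPM (median 10988) with it (1.68-fold, log2 0.74 ± 0.13 SE, edgeR adjusted p = 5.93e-05), without overlap. Among SCaBER libraries it ran from 3041 to 4244 CPM (median 3704) without the FOXA1 siRNA and 2608 to 3941 CPM (median 3637) with it (0.962-fold, log2 -0.06 ± 0.06 SE, edgeR adjusted p = 0.566). The difference between the lines was log2 -0.80 ± 0.17 SE (edgeR adjusted p = 0.00215). Its share went from 4.49% ± 0.25 to 5.09% ± 0.174 in RT112 (SD, n = 6 libraries of 3 groups), while SCaBER went from 3.5% ± 0.14 to 3.02% ± 0.299.

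The 3 subunits of complex IV, cytochrome c oxidase, all rose in RT112 and 1 of them rose in SCaBER in the comparison of 6 with 6 libraries. MT-CO1 (MT:5904-7445), which holds the catalytic site, ran in RT112 from 1112 to 4074 CPM (median 2974) without the FOXA1 siRNA and 2867 to 4621 CPM (median 3673) with it (log2 fold change 0.46 ± 0.17 SE, edgeR adjusted p = 0.0342), with overlap. It had the smallest log2 change of the 14 that passed there, and under siFOXA1 alone it stood at 3323 and 2867 CPM against 4074 and 2709 CPM under siControl (log2 fold change -0.15 ± 0.29 SE, edgeR adjusted p = 0.773). The call in the larger comparison was lost with DESeq2, with library size alone as the scale and without RT112 siZBED2-1 replicate 1. In SCaBER MT-CO1 ran from 2388 to 2980.1 CPM (median 2716) without the FOXA1 siRNA and 1715 to 3828 CPM (median 2549) with it (log2 fold change -0.04 ± 0.08 SE, edgeR adjusted p = 0.8). MT-CO2 (MT:7586-8269), which takes electrons from cytochrome c, ran in RT112 from 5661 to 14431 CPM (median 11916) without the FOXA1 siRNA and 14065 to 17027 CPM (median 15984) with it (log2 fold change 0.49 ± 0.13 SE, edgeR adjusted p = 0.00434). The SCaBER libraries ran from 7373 to 9855 CPM (median 8829) without the FOXA1 siRNA and 7775 to 11355 CPM (median 10764) with it (log2 fold change 0.23 ± 0.06 SE, edgeR adjusted p = 0.00207). Its arms overlapped in both lines. MT-CO3 (MT:9207-9990), a structural subunit, ran in RT112 from 8112 to 18852 CPM (median 14059) without the FOXA1 siRNA and 19328 to 23567 CPM (median 20978) with it (log2 fold change 0.56 ± 0.12 SE, edgeR adjusted p = 0.000635), without overlap. Levels in SCaBER ran from 9223 to 11729 CPM (median 10299) without the FOXA1 siRNA and 8196 to 10425 CPM (median 9642) with it (log2 fold change -0.13 ± 0.05 SE, edgeR adjusted p = 0.0814, and 0.028 with the replicate number as a block, under which it was called lower).

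Both subunits of complex V, the ATP synthase, rose in RT112 and neither did in SCaBER. MT-ATP8 (MT:8366-8572) ran in RT112 from 2947 to 8935 CPM (median 7704) without the FOXA1 siRNA and 9065 to 12423 CPM (median 9764) with it (log2 fold change 0.56 ± 0.15 SE, edgeR adjusted p = 0.00393), without overlap, but its call was lost with DESeq2. For SCaBER the range was 3788 to 6087 CPM (median 4561) without the FOXA1 siRNA and 3497 to 5131 CPM (median 4554) with it (log2 fold change -0.11 ± 0.08 SE, edgeR adjusted p = 0.332). MT-ATP6 (MT:8527-9207), which forms the proton channel, ran in RT112 from 5897 to 14939 CPM (median 13160.5) without the FOXA1 siRNA and 15603 to 19973 CPM (median 17395) with it (log2 fold change 0.59 ± 0.14 SE, edgeR adjusted p = 0.00119), also without overlap. SCaBER cells were at 6139 to 8424 CPM (median 6896) without the FOXA1 siRNA and 5756 to 6913 CPM (median 6629.7) with it (log2 fold change -0.12 ± 0.06 SE, edgeR adjusted p = 0.119). MT-ATP8 had 0.5 to 0.687 times as many counts as MT-ATP6 in RT112 and 0.548 to 0.772 times in SCaBER, and both lie on 1 mRNA whose 3′ end is that of MT-ATP6. With MT-ATP8 and MT-ATP6 summed, and MT-ND4L and MT-ND4 summed, 18 mitochondrial genes were called higher in RT112, the 20 less the 2 genes absorbed, and 8 in SCaBER.

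Set against the mitochondrial total instead of the library, most changes in RT112 shrank. With that total as the library size, the log2 changes of the 15 mRNA and rRNA genes with against without the FOXA1 siRNA ran from -0.13 (MT-ND6) to 0.54 (MT-ND1), with 0.48 for MT-ND2 and 0.18 for MT-CYB next. MT-CO1, MT-CO2, MT-CO3, MT-ND3, MT-ND5, MT-RNR1 and MT-RNR2 were below 0 as well, by at most 0.11. In SCaBER the range was from -0.29 (MT-CO3) to 0.36 (MT-RNR1). There MT-ATP8, MT-ATP6, MT-CO3, MT-ND4, MT-CYB, MT-ND5 and MT-CO1 were below 0 and the other 8 above, led by MT-RNR1, MT-ND1 (0.25) and MT-ND6 (0.20). MT-ND1, MT-ND2 and MT-ND4L were above 0 on both scales in both lines, MT-ND4L on this scale by 0.03 or less. These share changes carry no test.

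The response to the FOXA1 siRNA was tested for a difference between the lines. It was lower in SCaBER for 8 of 29 mitochondrial genes and higher for 0, where 3.93% of all genes tested were called lower. The 8 were MT-ND1, MT-ND2, MT-ATP8, MT-ATP6, MT-CO3, MT-ND4, MT-CYB and MT-TP, with log2 differences from -0.67 to -1.05. With the mitochondrial total as the library size these differences ran from -0.28 (MT-CO3) to -0.65 (MT-TP), given without a test. Mitochondrial genes share transcripts, so these are not 8 separate results. For the rRNA genes the difference was 0.03 ± 0.16 SE (MT-RNR1, edgeR adjusted p = 1) and -0.22 ± 0.14 SE (MT-RNR2, edgeR adjusted p = 0.396), and for MT-TF and MT-TL1 0.47 ± 0.20 SE (edgeR adjusted p = 0.168) and -0.12 ± 0.22 SE (edgeR adjusted p = 0.921), which does not show that these responses were alike. The count was 14 without RT112 siZBED2-2 replicate 1 and 8 without replicate 2 of that group. FOXA1 itself was lower in SCaBER without its siRNA, at 0.184 to 5.51 CPM against 31.4 to 56.9 CPM in RT112, and the part of this in the differences was not tested.

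With the ZBED2 siRNAs on their own few mitochondrial genes passed the test. With siZBED2-1 1 of 29 was higher in RT112, MT-ND4L (4.35% of all genes called higher), at 1759 and 1722 CPM against 1371 and 895 CPM (1.53-fold, log2 0.62 ± 0.20 SE, edgeR adjusted p = 0.0488). That call was lost with DESeq2 and without either siZBED2-1 library or siControl replicate 2, and 3 genes, MT-ND4L, MT-ND3 and MT-ND4, were called with the replicate block. In SCaBER edgeR called 0 with siZBED2-1 (4.65% of all genes called in either direction) and DESeq2 called 0. An unadjusted edgeR p under 0.05 was found for 3 of 29, and for 16.5% of all genes tested. MT-ND4L, the gene called in RT112, stood at 593 and 526 CPM against 406 and 458 CPM in SCaBER (log2 fold change 0.35 ± 0.13 SE, edgeR adjusted p = 0.13, and 0.0475 with the block). With siZBED2-2 edgeR and DESeq2 called 0 in either line (0.166% of all genes called in RT112 and 0.625% in SCaBER). There 3 in RT112 and 0 in SCaBER had an unadjusted edgeR p under 0.05, against 5.76% and 7.56% of all genes tested. Without RT112 siZBED2-2 replicate 1, which leaves the library that stood apart, 14 were called in RT112, and without replicate 2 the count was 0.

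Adding a ZBED2 siRNA to siFOXA1 was followed by lower levels of some of the genes that were higher under siFOXA1. The comparisons share the 2 siFOXA1 libraries of a line with each other and with siFOXA1 against siControl, so a high siFOXA1 value enters all of them. MT-TF stood at 282 and 182 CPM with siZBED2-1 added and at 174 and 129 CPM with siZBED2-2 added in RT112, against 278 and 331 CPM under siFOXA1. In SCaBER the values were 217 and 187 CPM and 203 and 149 CPM against 578 and 308 CPM. For MT-TL1 the RT112 levels were 88.3 and 70.9 CPM with siZBED2-1 added and 71.4 and 69.3 CPM with siZBED2-2 added, and those of SCaBER 22.2 and 26.4 CPM and 28.1 and 25.3 CPM. Every double knock-down library of MT-TL1 lay below both siFOXA1 libraries of its line, and above both siControl libraries.

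With siZBED2-1 added, 0 of 29 mitochondrial genes were called in RT112 (2.55% of all genes called in either direction) and DESeq2 called 1. An unadjusted edgeR p under 0.05 was found for 3, and for 14.45% of all genes tested. MT-ND6, MT-TL1 and MT-TP were called lower there with the replicate block. In SCaBER 3 were lower and 0 higher (1.39% called lower), namely MT-TF (0.456-fold, log2 -1.13 ± 0.22 SE, edgeR adjusted p = 0.0014), MT-TL1 (0.319-fold, log2 -1.65 ± 0.29 SE, edgeR adjusted p = 0.00055) and MT-RNR1 (0.621-fold, log2 -0.69 ± 0.14 SE, edgeR adjusted p = 0.00328). With the block 5 were called, the 3 and MT-ND1 and MT-RNR2, and with DESeq2 only MT-TL1. The call of MT-TF was lost without siFOXA1 replicate 1 (578 CPM), and that of MT-RNR1 without siFOXA1 + siZBED2-1 replicate 2. With siZBED2-2 added, MT-TF (0.497-fold, log2 -1.01 ± 0.19 SE, edgeR adjusted p = 0.00901) and MT-TL1 (0.536-fold, log2 -0.90 ± 0.21 SE, edgeR adjusted p = 0.0267) were lower in RT112 and 0 higher (0.354% called lower). Both calls were lost without siFOXA1 replicate 2 and without siFOXA1 + siZBED2-2 replicate 2. That of MT-TL1 was also lost without siFOXA1 + siZBED2-2 replicate 1.

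In SCaBER 7 were lower and 0 higher with siZBED2-2 added (1.41% called lower). They were MT-TF (log2 fold change -1.32 ± 0.22 SE, edgeR adjusted p = 0.000187), MT-TL1 (log2 fold change -1.50 ± 0.29 SE, edgeR adjusted p = 0.00126), MT-CO1 (log2 fold change -0.69 ± 0.14 SE, edgeR adjusted p = 0.00168), MT-ND1, MT-ND2, MT-RNR1 and MT-RNR2, the last 4 with log2 changes from -0.36 to -0.57. MT-CO1 and MT-RNR1 were lost with DESeq2, MT-CO1 and MT-ND1 without siFOXA1 replicate 2, and MT-RNR1 without siFOXA1 replicate 1. MT-CO1 stood at 1715 and 2079.8 CPM against 2379 and 3828 CPM under siFOXA1, and it had not passed the test under siFOXA1 against siControl (log2 fold change 0.32 ± 0.14 SE, edgeR adjusted p = 0.109, and 0.0291 with the block). With the replicate block 11 were called, the 7 and MT-CO2, MT-ND3, MT-ND4 and MT-ND5. The count was 12 without siFOXA1 + siZBED2-2 replicate 1 and 4 without replicate 2, which had the lowest mitochondrial share of the line (9.29%), and 3 of these 4 were among the 7.

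Nuclear genes for the copying, transcription, processing and decay of mitochondrial DNA and RNA were listed by their known roles, 47 in all, of which 46 were tested in RT112 and 45 in SCaBER. Under siFOXA1 3 were higher and 4 lower in RT112 (11.3% and 11.9% of all genes), and 1 was higher and 3 lower in SCaBER (8.71% and 9.12%). In RT112 the 3 that rose were REXO2, a mitochondrial oligoribonuclease, at 177 and 152 CPM under siControl and 249 and 288 CPM under siFOXA1 (log2 0.70 ± 0.16 SE, edgeR adjusted p = 0.00167), POLG, the catalytic subunit of the mitochondrial DNA polymerase (log2 0.77 ± 0.26 SE, edgeR adjusted p = 0.031), and KIAA0391, listed under an older symbol of PRORP, the nuclease subunit of mitochondrial RNase P (log2 1.45 ± 0.51 SE, edgeR adjusted p = 0.0407). GRSF1, an RNA-binding protein of mitochondrial RNA granules, fell there from 64.8 and 57.9 CPM to 33.9 and 34.1 CPM (log2 -0.86 ± 0.21 SE, edgeR adjusted p = 0.00337). TBRG4, a FASTK family protein, NRF1, a transcription factor of nuclear genes for mitochondrial proteins, and MGME1, a mitochondrial DNA exonuclease, fell as well. The changes were log2 -0.73 ± 0.25 SE for MGME1 (edgeR adjusted p = 0.0371) and log2 -0.69 ± 0.22 SE for TBRG4 (edgeR adjusted p = 0.0244). For NRF1 the change was log2 -2.05 ± 0.67 SE (edgeR adjusted p = 0.0267). NRF1 was low throughout, at 10.7 and 10.7 CPM under siControl and 4.04 and 1.09 CPM under siFOXA1.

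In SCaBER the gene of this list that rose was PNPT1, the mitochondrial polynucleotide phosphorylase, which degrades RNA and is also induced by interferon. It stood at 32.7 and 32.2 CPM under siControl and at 101 and 146 CPM under siFOXA1 (log2 1.91 ± 0.21 SE, edgeR adjusted p = 1.75e-08). MRPL12, a protein of the mitochondrial ribosome, fell from 41.3 and 36.6 CPM to 20.4 and 19.4 CPM (log2 -0.98 ± 0.27 SE, edgeR adjusted p = 0.00774). TWNK, the mitochondrial replicative helicase, and MGME1 fell too (log2 -0.84 ± 0.28 SE, edgeR adjusted p = 0.0312, and log2 -0.83 ± 0.28 SE, edgeR adjusted p = 0.0356). In the comparison of 6 with 6 libraries 5 were higher and 5 lower in RT112 (16.7% and 17.0% of all genes), and 1 was higher and 5 lower in SCaBER (12.1% and 12.0%). PNPT1 was higher and MGME1 and GRSF1 lower in both lines there, PNPT1 by log2 0.78 ± 0.14 SE in RT112 and 1.23 ± 0.12 SE in SCaBER (edgeR adjusted p = 9.67e-05 and 9.87e-10). The list's median log2 change was 0.08 in RT112 and 0.07 in SCaBER, against -0.01 for all genes in both. In none of these 4 comparisons was the share of the list called in a direction above that of all genes tested.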

How the data were processed

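Total RNA of 24 samples of transfected cells was measured by 3′ RNA-seq (QuantSeq FWD). The deposited values are raw counts per gene, which the authors made, per the labels, with Raw-qc 2.1.0, TrimGalore 0.6.2 (minimum quality 20, minimum length 10), STAR 2.6.1a, the hg38 genome and GENCODE release 29; the study's methods name another build, hg19. The table has 58721 genes and 0 unnamed rows. Normalized values deposited beside the counts were not used here. Members and gene lists were chosen with earlier results of these data known. Groups came from the labels.

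Counts were tested in R 4.3.3 with the quasi-likelihood F-test of edgeR 4.0.16 (TMM factors; filterByExpr with a minimum count of 10 and a minimum total of 15), fitted to all genes of a line (13264 in RT112, 13129 in SCaBER) or of both lines (14823), with Benjamini-Hochberg adjustment over all genes tested and calls under 0.05. CPM use the TMM-scaled library sizes of the fit of both lines. Shares were computed from raw counts. Wilson intervals (95%) and the floor of 3 counts cover counting error only. The fitting code was tested on simulated data. Alternatives were RLE scaling, library size alone, TMM from nuclear genes, the mitochondrial total as library size, no low-count filter, DESeq2 1.42.0, summed overlapping genes, left-out libraries and the replicate number as a block.

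The labels say that a replicate number marks an experiment batch, so the numbers pair the samples. Same-numbered libraries of a line deviated together only weakly, with a mean correlation of 0.0628 in RT112 and 0.0497 in SCaBER over 15 pairs of groups each, of which 2 and 3 were above 0.1.

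Named were the 15 mRNA and rRNA genes, the 3 tRNA genes with the most counts, those at 0, and the called nuclear factors of smallest p. MT-TM, MT-TG and MGME1 and GRSF1 in the comparison of 6 with 6 libraries were named after their values were seen. Coordinates are from GENCODE (v44lift37) and equal those of RefSeq (GRCh38.p14). Sequences are from GENCODE transcripts (v44lift37, GRCh37), read by gene. Python 3.11.15, scipy 1.17.1 and matplotlib 3.10.9 were used for intervals and plots.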

Additional observations from a re-analysis of the deposited data

Results flagged for a closer look

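The response to the FOXA1 siRNA (6 libraries with against 6 without it in each line) differed between RT112 and SCaBER for 8 mitochondrial genes by the interaction term of the edgeR fit of both lines, adjusted over all genes tested. In each of the 8 the log2 change was lower in SCaBER. The log2 difference, SCaBER minus RT112, was -0.69 for MT-ND1, -0.79 for MT-ND2 and -0.708 for MT-ND4, of complex I. It was -0.803 for MT-CYB of complex III, -0.686 for MT-CO3 of complex IV, and -0.715 for MT-ATP6 and -0.672 for MT-ATP8 of complex V, of which the last 2 overlap in the genome. It was -1.05 for the tRNA gene MT-TP. The calls of MT-ATP8 and MT-ND1 were lost with DESeq2, and that of MT-ATP8 also without SCaBER siZBED2-2 replicate 1. With the mitochondrial total as the library size, given without a test, each of the 8 differences was smaller. For complex I they were log2 -0.29 ± 0.21 SE (MT-ND1), -0.38 ± 0.20 SE (MT-ND2) and -0.31 ± 0.19 SE (MT-ND4). The others were -0.40 ± 0.20 SE (MT-CYB), -0.28 ± 0.19 SE (MT-CO3), -0.32 ± 0.19 SE (MT-ATP6), -0.28 ± 0.20 SE (MT-ATP8) and -0.65 ± 0.34 SE (MT-TP). MALAT1 and the mitochondrial share also differed more between the arms in RT112 than in SCaBER, and their part in these differences was not tested. No test for a single outlying library was run, since each group held 2.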

How the results depend on the processing

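Counts of mitochondrial genes called with against without the FOXA1 siRNA were 17 to 21 in RT112 under all alternatives (20 as reported), and in SCaBER 8 to 13 with libraries left out (8 as reported; 13 without siFOXA1 + siZBED2-2 replicate 1). For siFOXA1 against siControl in RT112 the count of 12 became 6 with DESeq2 and 6 to 19 with libraries left out. With no low-count filter more were called: 7 with siZBED2-1 and 5 with siZBED2-2 in RT112, 5 and 9 with siZBED2-1 and siZBED2-2 added to siFOXA1 in RT112, 5 and 12 in SCaBER, 16 between the lines in siControl and 15 for the line difference of the response. DESeq2 called 0 with siZBED2-1 in RT112, and 1 in each line with siZBED2-1 added. With libraries left out the counts in RT112 ran from 0 to 3 with siZBED2-1, 0 to 14 with siZBED2-2, and 0 to 2 with siZBED2-1 or siZBED2-2 added. In SCaBER they ran from 0 to 1 with siZBED2-1 or siZBED2-2 and from 4 to 12 with siZBED2-2 added. They ran from 5 to 14 between the lines in siControl, and from 8 to 14 for the line difference. The cause of these moves was not tested. Shares of all genes called are given for the reported settings only. Gains here or with the replicate block need not be particular to mitochondrial genes.

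With the replicate block, which pairs libraries by replicate number, no call was lost. The count became 17 and 11 under siFOXA1 in RT112 and SCaBER, 12 between the lines in siControl, 10 for the line difference, 21 and 11 with against without the FOXA1 siRNA in RT112 and SCaBER, 3 with siZBED2-1 in RT112, 3 with siZBED2-1 added in RT112, 1 with siZBED2-1 in SCaBER, and 5 and 11 with siZBED2-1 and siZBED2-2 added in SCaBER.

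With the mitochondrial total as the library size, which by construction measures a share, called changes turned sign. For siFOXA1 against siControl in RT112 these were MT-ND3 (-0.000488), MT-RNR1 (-0.051) and MT-RNR2 (-0.145). With against without the FOXA1 siRNA in RT112 they were MT-CO1 (-0.081), MT-CO2 (-0.070), MT-CO3 (-0.018), MT-ND3 (-0.038), MT-ND5 (-0.076), MT-RNR1 (-0.107) and MT-RNR2 (-0.104), and between the lines in siControl MT-CO2 (0.022).

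Without the 2 rRNA genes the difference in mitochondrial share with the FOXA1 siRNA went from 5.83 to 4.22 points in RT112 and from 0.979 to 0.00578 points in SCaBER, where the mRNA genes alone took 5.82% of the library without and 5.80% with the siRNA. Groups of 2 libraries and low tRNA gene counts limit precision. Leaving out 1 library of a group assumes that the other varies like the rest.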
